A study of Mus musculus with 8 samples.

Results

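CAGE-seq clusters were examined at 9 mouse genes whose products write, remove or read methylation of histone H3 on lysine 36 or act with it against cryptic transcription: Setd2, Nsd1, Ash1l, Kdm5b, Kdm4a, Psip1, Supt6, Supt16 and Ssrp1. The genes were listed by name for these roles, with earlier results of these data known. The clusters of a gene were all those on its strand whose dominant transcription start site (TSS) lay from 500 bp upstream of the gene start to the gene end in GENCODE release M21, on mm10. By this rule the genes held 63 of 32857 clusters in E14, 64 of 33005 in clone A1 and 66 of 32870 in clone C7.

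CAGE-seq captures capped RNA 5′ ends, and neighbouring 5′ ends are grouped into tag clusters, each with a dominant TSS, the base with the most signal. Nuclear RNA was used from wild-type E14 mouse embryonic stem cells (mESCs; 3 libraries) and from E14 cells with both Pwwp2a and Pwwp2b knocked out (Pwwp2a/b DKO), as clone A1 (2 libraries) and clone C7 (3 libraries), all grown with serum and LIF on gelatine. Each DKO line is 1 clone, so within a line the knockout and the history of the clone cannot be told apart. The authors merged the libraries of a line before clusters were called, and every score in the cluster table is 0. There is therefore 1 cluster set a line, with no replicate error, and the table holds neither a signal level nor a read count for a cluster, so no test was possible. The study lists mapped reads per library elsewhere, which were not used here. Counts and positions are given as descriptions beside the same measure over all clusters.

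H3K36me3 is laid down along the bodies of transcribed genes by SETD2, which travels with elongating RNA polymerase II. In yeast, loss of the equivalent mark, or of the histone chaperones SPT6 and FACT that rebuild nucleosomes behind the polymerase, lets transcription begin inside genes from cryptic sites. PWWP2A and PWWP2B read H3K36me3 through a PWWP domain and bring in histone deacetylases, and the study used existing knockout lines to ask whether they protect against such initiation. The 9 genes therefore encode parts of the pathway that the experiment perturbs, and are themselves transcribed genes in which internal initiation can be looked for. The study reported mainly a higher level of initiation at intragenic sites already used in wild-type cells. The cluster positions used here cannot show such a change of level.

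Each cluster was sorted by its dominant TSS. A cluster was called a promoter cluster where an annotated transcript of any kind started within 500 bp on the same strand, otherwise exonic or intronic, and clusters were numbered along each gene from its 5′ end. In E14 the 9 genes held 30 promoter, 29 exonic and 4 intronic clusters. Exonic clusters made up 46% of their clusters, against 13% of all E14 clusters, and promoter clusters 47.6% against 60.5%. All E14 clusters include intergenic ones, which the rule for the clusters of a gene leaves out, so these shares do not compare like with like. With a promoter window of 100 bp the promoter count was 19 in each line. Exonic clusters were present in 6 of the 9 genes (66.7%), against 1486 of the 11168 coding genes with a promoter cluster in E14 (13.3%). Intronic clusters were present in 4 of the 9 (44.4%), against 11.7%.

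The sequences at the dominant TSSs are shown first, as examples, since exonic and promoter clusters of the whole table differed in them. Each line below gives 30 bases, 15 before the dominant TSS and 15 from it onwards, read 5′ to 3′. The bases come from RefSeq promoter sequence or GENCODE transcripts of mm10. The dominant TSS is that of E14, or that of a clone for a cluster that E14 lacks. Capitals mark the pair of bases before the TSS and the TSS base. Where an exon begins within the 15 bases before the TSS, or ends within those after it, the sequence is that of the spliced transcript. The first set shows clusters at gene starts.
Setd2 promoter 1, chr9:110532533-110532562, plus strand: gcgggcgggccagCCAgccagccagcgacg
Ash1l promoter 2, chr3:88950723-88950752, plus strand: gccgctcccgccgCCAttttgggttcgctt
Kdm4a promoter 1, chr4:118180006-118180035, minus strand: tgactatgggctcTGTgaggctgcgcagag
Psip1 promoter 1, chr4:83486418-83486447, minus strand: cgggagccgcgcgGGAgcggcgtagcgaca
Supt6 promoter 3, chr11:78245689-78245718, minus strand: gaggtgacgtactACGttaacgcagcagcg
Supt16 promoter 2, chr14:52197226-52197255, minus strand: gtacttccgggtcACAgagagtgcgggatt
Ssrp1 promoter 3, chr2:85037447-85037476, plus strand: aagggggagaaacGTAgattcacgcggggc

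A pyrimidine directly before a purine at the TSS is the usual arrangement at mammalian start sites. Among these examples Kdm4a promoter 1 and Psip1 promoter 1 lacked it, and in the latter GG preceded the TSS. The next set shows exonic clusters that were present in all 3 lines, at least 1 from each of the 6 genes that had any.
Nsd1 exonic 6, chr13:55247208-55247237, plus strand: agagtcctggtggGGGtgactctgccttgt
Kdm5b exonic 3, chr1:134588875-134588904, plus strand: ctcacatatcaggGGAcattatgagcgaat
Psip1 exonic 3, chr4:83474325-83474354, minus strand: ctgatgttgaagtGGAagaaaaagagacta
Psip1 exonic 4, chr4:83474283-83474312, minus strand: aagacactgatcaGGAagaaaaggccagca
Supt6 exonic 5, chr11:78232726-78232755, minus strand: atgaagaagaaggGGAggaggatgagggca
Supt16 exonic 7, chr14:52175269-52175298, minus strand: gggcaggaatgagGGCaacatctttcctaa
Ssrp1 exonic 4, chr2:85044390-85044419, plus strand: aacagctcaaaagGGCtaagatggccaagg

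All 7 were chosen because GG stood directly before the dominant TSS. Over all exonic clusters of the 9 genes in E14, this held for 19 of 29 (65.5%), and a pyrimidine followed by a purine at the TSS was found in 2 (6.9%). The exonic clusters of the whole set were alike, with GG before the TSS in 64% of 4260 and a pyrimidine and purine in 10.5%. Of all promoter clusters with sequence, 17222 of 19872, 11.1% had GG and 74.4% a pyrimidine and purine. The GG share in the 9 genes was 63.3% of 30 exonic clusters in A1 and 62.5% of 32 in C7.

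**Figure D1:**
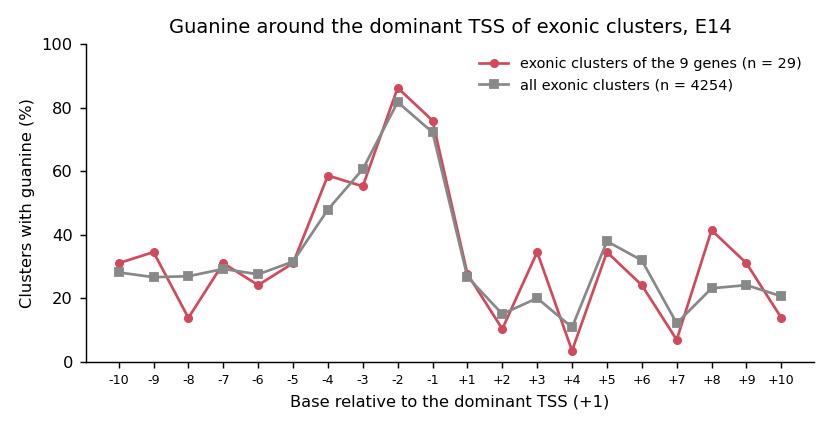
Percent of exonic E14 clusters with guanine (y axis) at each base from 10 before to 10 from the dominant TSS (x axis, TSS at +1), for the 9 genes (red circles, n = 29) and for all exonic clusters with sequence (grey squares, n = 4254). Guanine peaked at the second base before the TSS, at 86.2% in the 9 genes and 81.7% in all, and stood at 27.6% and 26.7% at the TSS itself.

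Not every exonic cluster had this pair. These 4 are examples of those without it and not all of them, and include the Nsd1 cluster whose dominant TSS moved in both clones.
Nsd1 exonic 7, chr13:55247930-55247959, plus strand: tcagcagcagatcCCAatcatggcagccac
Nsd1 exonic 13, chr13:55316825-55316854, plus strand: gtcactatgtcagGCTtttttttttctttt
Psip1 exonic 2, chr4:83476334-83476363, minus strand: caaaccaaataaaCGGaaaggttttaatga
Supt6 exonic 7, chr11:78232508-78232537, minus strand: gaggagaatttggGTGttaaagtcaaacga

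Examples of clusters deep inside a gene that counted as promoter clusters because an annotated transcript starts within 500 bp are shown next. All those shown have GG before the TSS. Psip1 promoter 12 and Ssrp1 promoter 6, which also lie deep and lack GG, are not shown.
Setd2 promoter 3, chr9:110547526-110547555, plus strand: gagagtggaattgGGCagaattcattttaa
Setd2 promoter 4, chr9:110602219-110602248, plus strand: cgagaccctgaggGGAagatctactactac
Psip1 promoter 7, chr4:83465103-83465132, minus strand: aagtaaaaaaaagGGAccagaggagaaaca
Psip1 promoter 9, chr4:83464982-83465011, minus strand: gttgaatctaaacGGAaaaatttagctaaa
Ssrp1 promoter 5, spliced transcript with the dominant TSS at chr2 position 85045421, plus strand: agaggcaaagaagGGTaaagatccaaacgc

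Among the 9 genes, 9 promoter clusters lay over 5000 bp into the gene, in Setd2, Psip1 and Ssrp1. GG preceded the dominant TSS in 7 of these 9 (77.8%) and a pyrimidine stood before a purine in none of the 9. Psip1 promoters 7 to 10, which lie close together, all had GG, so the share rests largely on 1 stretch of Psip1. Of the 2228 promoter clusters with sequence (of 2642) that lay over 5000 bp into any coding gene in E14, 27% had GG and 54.8% a pyrimidine and purine. This split was chosen after the sequences had been seen. For promoter clusters up to 5000 bp from the gene start, 14 of 21 (66.7%) had sequence, under the minimum of 80%, so that check is void and no share is given.

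The writers of H3K36 methylation differed from each other in clusters classed as exonic. Setd2, the methyltransferase that makes H3K36me3 (ENSMUSG00000044791.16, chr9:110532597-110618633, plus strand), had 3 promoter clusters, no exonic cluster and 1 intronic cluster in each line. Promoter 1 lay 49 bp upstream of the gene start, and its dominant TSS was base 110532548 in E14 and C7 and base 110532544 in A1. The other 2 promoter clusters lay 17.4% and 80.9% of the way along the gene, 429 and 60 bp from starts of nonsense-mediated decay transcripts, and kept their dominant TSS in all 3 lines. The intronic cluster, 3471 bp into the gene and 2 bp wide, peaked at base 110536068 in E14 and at base 110536067 in both clones. The gene Gm42763 overlaps Setd2 on the same strand, and none of these clusters lay in it.

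Nsd1, an H3K36 dimethyltransferase (ENSMUSG00000021488.8, chr13:55209782-55318325, plus strand), had 5 promoter clusters within 2288 bp of the gene start in all 3 lines. It had 6 exonic clusters in E14 and A1 and 7 in C7, and 1 intronic cluster in each. Of the 11168 coding genes with a promoter cluster, 1.37% had 6 or more exonic clusters in E14. Its exonic clusters fell into 2 groups. Clusters 6 and 7 lay in coding sequence of the 2560 bp exon 5 of 23, and clusters 9 to 13 in the 6207 bp last exon, 4 of them in the 3′ UTR. The dominant TSS of exonic 7 was base 55247945 in E14 and lay 21 bp further upstream, at 55247924, in both clones. The seventh exonic cluster of C7, exonic 10, was 1 bp wide, at 55314185 in the 3′ UTR.

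Ash1l, which also dimethylates H3K36 (ENSMUSG00000028053.13, chr3:88950622-89079375, plus strand), is the longest of the 9 genes at 128754 bp, and held only 2 promoter clusters in every line. Both kept their dominant TSS across the lines, at 88950362 and 88950738. The body of the gene held no cluster in any line.

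The demethylases showed the same contrast. Kdm5b, which removes methyl groups from H3K4 and has been studied as a suppressor of cryptic intragenic transcription in mESCs (ENSMUSG00000042207.17, chr1:134560171-134635285, plus strand), had 2 promoter, 5 exonic and 1 intronic clusters in each line. The share of coding genes with 5 or more exonic clusters was 1.85%. Its exonic clusters lay in exons 4, 5 and 6 and in exons 26 and 27 of 27, were 1 to 3 bp wide, and had the same dominant TSS in E14, A1 and C7. Kdm4a, which removes methyl groups from H3K36 and H3K9 (ENSMUSG00000033326.15, chr4:118136957-118180043, minus strand), had 2 promoter clusters in each line and no internal cluster. Its promoter 1 had the longest move of a dominant TSS in the 9 genes, from 118180020 in E14 to 118179966 in both clones, 54 bp downstream.

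Psip1 encodes a chromatin reader whose PWWP domain binds H3K36 methylation (ENSMUSG00000028484.16, chr4:83455680-83486459, minus strand). It had 6 promoter clusters in each line, 5 exonic clusters in E14 and A1 and 6 in C7. Only promoter 1 lay at the gene start, 27 bp into it, and every line peaked there at base 83486432. Promoters 7 to 10 lay together 69.3% to 69.8% of the way along the gene, 11 to 74 bp from annotated transcript starts, and promoter 12 lay at 85.8%. Exonic 2 to 6 lay in coding sequence of exons 4, 5, 7 and 8 of 16, with 2 clusters in exon 5. The exonic cluster found in C7 alone was 1 bp wide, at 83463613 in coding sequence of exon 10.

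Supt6 encodes SPT6, a histone chaperone that binds the elongating polymerase (ENSMUSG00000002052.6, chr11:78206746-78245987, minus strand). It had 3 promoter clusters and 6 exonic clusters in every line. The promoter clusters had dominant TSSs at 78246186, 78245953 and 78245703 in all 3 lines. All 6 exonic clusters lay in exons 3, 4 and 5 of 37 (numbered in a coding transcript, as throughout), between 33.6% and 35.5% of the gene's length, and none was present in the exons after them. The 30 bases around their dominant TSSs held 19 to 27 purines (median 22), against a median of 18 over the 29 exonic clusters of the 9 genes and 17 over all exonic clusters with sequence. Their dominant TSSs were the same in E14 and A1 but for exonic 7, 1 bp downstream in A1, and in C7 exonic 6 moved 9 bp upstream and exonic 9 moved 15 bp downstream.

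FACT is a histone chaperone made of the products of Supt16 and Ssrp1, and its subunit genes differed in their clusters. Supt16 (ENSMUSG00000035726.8, chr14:52160414-52197416, minus strand) had 2 promoter clusters and 1 intronic cluster in each line, with 6 exonic clusters in E14 and 7 in A1 and C7. The exonic clusters lay from 51.5% to 99.4% of the gene's length, in exons 9, 10, 11, 15, 23 and 26 of 26. The dominant TSS of exonic 3 in E14 and A1, base 52178350, differed from that in C7, base 52178345. Ssrp1 (ENSMUSG00000027067.16, chr2:85037234-85047109, plus strand), the shortest of the 9 genes at 9876 bp, had 5 promoter clusters and 1 exonic cluster in each line. The exonic cluster, 16 bp wide in coding sequence of exon 13 of 17, peaked at base 85044405 in each line, and with a promoter window of 1000 bp the gene had 0 exonic or intronic clusters. Promoters 5 and 6 lay at 82.9% and 85.4% of the gene's length, near starts of processed transcripts.

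**Figure D2:**
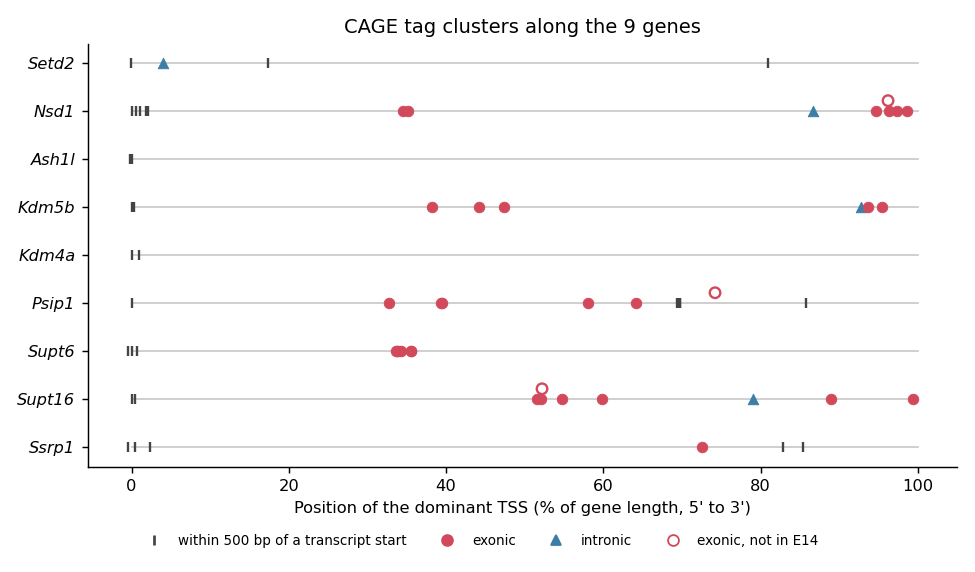
Dominant TSS of each cluster as percent of the gene's length from its 5′ end (x axis) for the 9 genes (rows), in E14 or, for open circles, in the clone that held it. Vertical ticks are promoter clusters, filled red circles exonic, blue triangles intronic, and the 3 open circles, raised above the line, exonic clusters that E14 lacks. Setd2, Ash1l and Kdm4a have no cluster classed as exonic, though the Setd2 ticks at 17.4% and 80.9% lie in exons of a coding transcript. The 6 exonic clusters of Supt6 sit between 33.6% and 35.5%.

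The exonic clusters of the 9 genes lay mostly in coding sequence. This was so for 24 of 29 (82.8%), against 65.3% of all exonic clusters, and the other 5 lay in 3′ UTRs. The length of the exon, taken once per cluster, had a median of 159 bp, against 799 bp over all exonic clusters. A last exon held 6 of the clusters (20.7%), against 40%. Of the 24 in coding sequence, the next ATG in the transcript was in frame for 11 (45.8%), against 33.6% of 2743, at a median of 14 bases from the TSS, against 40. Within the 29, 3 (10.3%) lay within 10 bases of an exon start, against 5.75%.

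Most cluster positions were common to the 3 lines in the table as a whole, down to the same start and end, so the overlap of lines at the 9 genes is not read as a likeness of the lines. Each of the 63 E14 clusters overlapped a cluster of both clones, while 1.23% of all E14 clusters were missing from A1 or C7. The start and end were also the same in all 3 lines for 63 of 63, as they were for 98.5% of the 32454 clusters found in the 3 lines over the whole table. The clones added exonic clusters only. In both clones and not in E14 there was 1 of 64 clusters, against a background of 0.454% of all clusters, and 1 of 30 exonic clusters, against 0.939%. In C7, 3 of 66 clusters were not in E14, against 0.776%, or 3 of 32 exonic clusters, against 1.9%. In A1 it was 1 of 64, against 1.11%. With counts of 1 and 3 nothing is read from these shares. When clusters with an interquantile span under 3 bp were left out, the 9 genes held 19 exonic clusters in each of the 3 lines.

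The cluster in both clones was Supt16 exonic 5, 1 bp wide at 52178103 in coding sequence of exon 10, and exonic 4 lies in the same exon. The sequences of the 3 clusters that E14 lacked are shown because these were the gains in the pathway genes.
Supt16 exonic 5, chr14:52178089-52178118, minus strand: actaacaaagaagGGAaaaagccagaagag
Nsd1 exonic 10, chr13:55314170-55314199, plus strand: gtgcaagggcaggGGGccagtcattattgt
Psip1 exonic 11, chr4:83463599-83463628, minus strand: aacgcaagcaggaGGAacaaatggaaactg

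All 3 had GG before the TSS, as did most exonic clusters of E14, and all 3 were 1 bp wide. A single base is the least a cluster can span. Because the table holds no signal, whether such a cluster was absent from E14 or below the level needed to be called cannot be told apart.

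**Figure D3:**
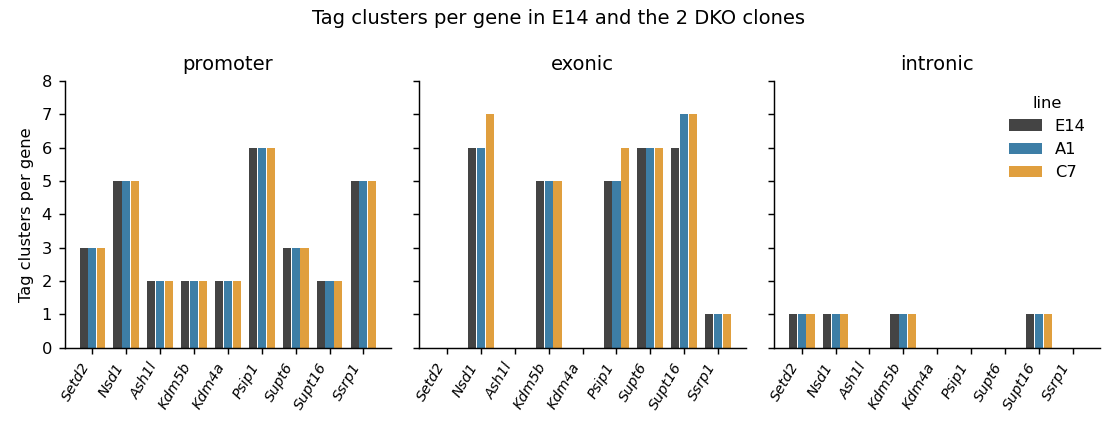
Number of tag clusters per gene (y axis) in E14 (dark grey), A1 (blue) and C7 (orange) for promoter, exonic and intronic clusters (panels), each bar being 1 merged cluster set. The bars of a gene are level in every panel except exonic, where Supt16 has 6, 7 and 7, Nsd1 has 6, 6 and 7, and Psip1 has 5, 5 and 6.

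Within shared clusters, the dominant TSS often lay at another base in a clone. In A1 it did so in 15 of 63 clusters, the same share, 23.8%, as over all clusters, and in C7 in 18 (28.6%), against 21.2%. The same new base in both clones was found in 7 of 63 (11.1%), against 8.48% of all clusters, a share near the background. These 7 were Setd2 intronic 2, Nsd1 exonic 7, Kdm5b promoter 2, Kdm4a promoter 1, Psip1 promoter 10 and Ssrp1 promoters 1 and 3. Setd2 intronic 2, Kdm5b promoter 2 and Psip1 promoter 10 moved by 1 bp and are 2 bp wide. At Ssrp1 the moves went both ways, 13 bp upstream at promoter 1, from 85037188 to 85037175, and 31 bp downstream at promoter 3, from 85037462 to 85037493.

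At Supt16, 6 dominant TSSs differed in C7 and 0 in A1. In C7 exonic 3, 4, 9 and 10 lay 5, 2, 18 and 1 bp downstream, intronic 8 lay 1 bp downstream and promoter 1 lay 2 bp upstream. The opposite was seen at the Nsd1 promoters, where promoters 2 and 4 lay 21 and 40 bp downstream in A1 and at the E14 base in C7. Psip1 promoter 8 lay at another base in each line, 83465069 in E14, 83465061 in A1 and 83465068 in C7.

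**Figure D4:**
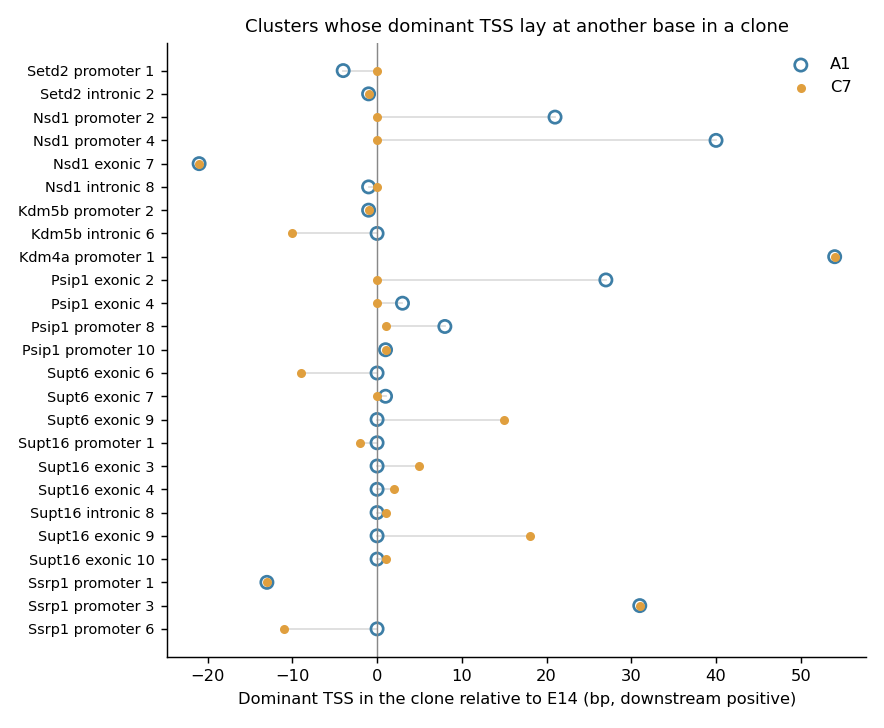
Distance of the dominant TSS in A1 (open blue circles) and C7 (filled orange circles) from its base in E14 (x axis, bp, downstream positive) for the 25 clusters (rows) where it differed in at least 1 clone. In 7 rows both symbols coincide away from 0, from 21 bp upstream at Nsd1 exonic 7 to 54 bp downstream at Kdm4a promoter 1, and in the other 18 the clones differ.

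Exonic clusters were narrow and promoter clusters wide. The interquantile width, the span between the 0.1 and 0.9 quantiles of a cluster's signal, had a median of 20 bp over the 30 promoter clusters in E14 (range 2 to 88) and 3 bp over the 29 exonic clusters (range 1 to 36). Over all E14 clusters the medians were also 20 and 3 bp. At most 3 bp was spanned by 6 promoter clusters (20%) and 15 exonic clusters (51.7%), against 14.1% and 50.7% of all clusters.

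Promoter clusters were more often wider than narrower in the clones. In A1, 13 of 30 were wider than in E14 (43.3%, against 25.7% of all promoter clusters), and 1 was narrower (3.33%, against 13%). In C7, 10 were wider (33.3%, against 24%) and 4 narrower (13.3%, against 12.6%). The median width was 24 bp in A1 and 23.5 bp in C7, against 20 bp in E14. Over all promoter clusters it was 20 bp in E14 and 21 bp in each clone. By the width of the whole cluster, the median in the 9 genes was 36 bp in every line, so the change lay in the interquantile span alone. Among those wider in both clones, Nsd1 promoter 3 had an interquantile width of 8 bp in E14 and 24 bp in A1 and C7. Supt16 promoter 2 spanned 61 bp in E14 and 74 bp in each clone. At Ssrp1, promoter 5 went from 2 bp to 11 bp and promoter 6 from 32 bp to 43 bp in both clones. Others did not change alike. Kdm4a promoter 1 went from 60 bp in E14 to 65 bp in A1 and 56 bp in C7, and Kdm5b promoter 1 from 32 bp to 39 and 31 bp. Supt6 promoter 2 narrowed from 17 bp to 11 bp in A1 and stayed at 17 bp in C7. The width of a merged set can move with its number of reads, which the table does not hold, and A1 was merged from 2 libraries and the others from 3, so their part in these widths was not tested.

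Fewer exonic than promoter clusters changed width, but most exonic clusters could not become wider. Their start and end were the same in all 3 lines, and in E14 the interquantile span was already the whole cluster. The exceptions were Nsd1 exonic 7, 11 and 13 and Psip1 exonic 6. The low counts of wider exonic clusters are therefore not read as a stability of width. In A1, 2 of 29 were wider (6.9%, against 11.2% of all exonic clusters) and none of the 29 narrower, against 6.36%. In C7, none of the 29 was wider, against 9.07%, and 2 were narrower (6.9%, against 6.68%). Nsd1 exonic 13, in the 3′ UTR, was 23 bp wide in E14, 32 bp in A1 and 11 bp in C7, and Nsd1 exonic 11 was 13 bp wide in A1 and 3 bp in the other lines.

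**Figure D5:**
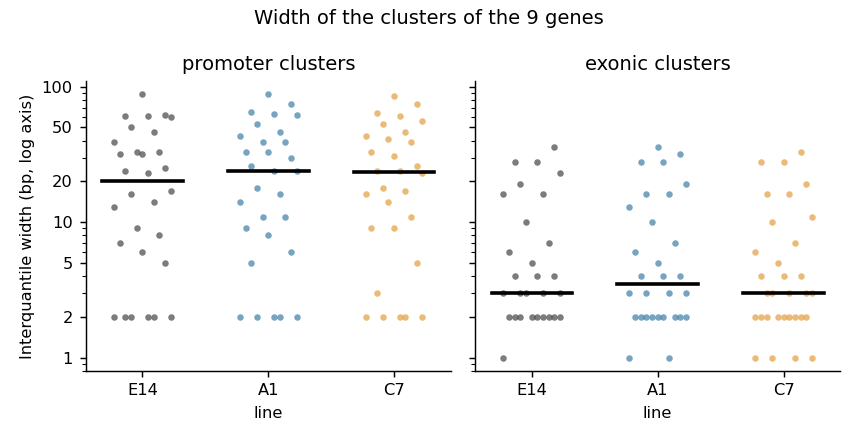
Interquantile width (y axis, bp, log axis) of each promoter cluster (left) and exonic cluster (right) of the 9 genes in E14, A1 and C7, with black bars at the medians. Promoter medians are 20, 24 and 23.5 bp and exonic medians 3, 3.5 and 3 bp, and exonic clusters reach down to 1 bp.

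Other genes of H3K36 methylation and elongation were counted from a list of 30, of which all 30 were found in the annotation and had a promoter cluster in E14. Exonic clusters were present in 9 (30%) and intronic clusters in 7 (23.3%), against 13.3% and 11.7% of coding genes with a promoter cluster. Those coding genes were again not matched for expression or length. The list held 20 exonic clusters in each of the 3 lines, and 29 genes had the same counts of promoter, exonic and intronic clusters in all 3. The counts of 1 gene (3.33%) differed between lines, against 4.31% of coding genes. That gene, named after its values were seen, was Nsd3, an H3K36 methyltransferase, with 1 promoter cluster and no intronic cluster in E14 and C7 and 2 of each in A1. No gene of the list had a cluster in both clones that E14 lacked, against 0.654% of coding genes. Setd5, named for its SET domain, had the most exonic clusters, 7 in each line. The mismatch repair protein gene Msh6, whose product has a PWWP domain that binds H3K36me3, had 4. Leo1, for a subunit of the PAF elongation complex, had 2, as did Rtf1.

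The genes most like Nsd1, Supt6 and Supt16, which tied for most exonic clusters in E14, were sought by the smallest sum of absolute differences over 9 counts, promoter, exonic and intronic in 3 lines. For Supt6, Mphosph8, Nfat5 and Nktr had the same 9 counts (difference 0), as did 6 genes in all. For Supt16, Anp32b, Med13l and Pura differed by 2, and for Nsd1, Arglu1 and Atp2a2 differed by 4 and Eif4g1 by 5.

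As a check of the labelled cell type, Pou5f1, Nanog, Sox2, Zfp42, Esrrb and Klf4, markers of embryonic stem cells, all had a promoter cluster in each line. Of 8 markers of other cell types, 2 did, Sox17 with 1 cluster and Col1a1 with 2 in each line, and Gata6, T, Pax6, Krt14, Ptprc and Cdx2 had none in any line. Every marker was present or absent alike in the 3 lines, so the markers cannot check which line is which. Pwwp2a had 1 promoter cluster in all 3 lines, the DKO clones included, and Pwwp2b had none in any. A start site can remain where a later part of a gene is deleted, so these clusters do not check the knockout.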

How the data were processed

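CAGE-seq of nuclear RNA from 3 E14, 2 clone A1 and 3 clone C7 libraries was used. The authors mapped reads to mm10 with STAR (version 2.4.2a per the labels), kept reads with a unique alignment, pooled the libraries of a line, applied power-law normalization and clustered the 5′ ends in CAGEr. The deposited table holds cluster positions, with a score of 0 in every row, so no read counts were used and precision cannot be given. Reads per library, which the study lists, were not used here. The submitters' notes also name SAMtools 1.3 and bedtools 2.17.0. Signal tracks were not used here.

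Clusters were sorted with GENCODE release 21 (mouse, GRCm38, from which mm10 is built; the authors used another release) in the order promoter, exon, intron, and overlap was 1 bp or more on the same strand, in Python 3.11.15, NumPy 2.4.6 and Matplotlib 3.10.9. Both functions were tested on simulated clusters. Members and lists were chosen with earlier results of these data known. All 9 genes are named, then the 3 listed genes with the most exonic clusters, listed genes with line-specific clusters, the 3 genes most like the leading members, the markers and the knocked-out genes. Sequences were found for all 29 exonic E14 clusters and 86.7% of all promoter clusters, and some are not reported here. Alternatives were other promoter windows, coding transcripts only, a minimum width, other overlap rules and each clone alone.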

Additional observations from a re-analysis of the deposited data

How the results depend on the processing

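With a promoter window of 100 bp, the promoter clusters of the 9 genes numbered 19, 19 and 19 (E14, A1, C7). With a minimum interquantile width of 3 bp, exonic clusters numbered 19, 19 and 19 and intronic clusters 1, 1 and 1. By the same dominant TSS, 38 E14 clusters were found in both clones. Taking C7 alone, 3 clusters were not in E14. A move of the dominant TSS of at least 5 bp, alike in both clones, was left in 4 clusters, and a move of any size was seen in 15 in A1 alone and 18 in C7 alone. By the width of the whole cluster the promoter median was 36 bp in E14, in A1 and in C7, which the shared starts and ends fixed in advance. Of 62 values of the main results under another setting, 46 stayed within 1.5 times the main value, and 16 moved. The A1 promoter median, 24 bp in the main setting and 36 bp by the whole cluster, lay at that limit and was counted as having stayed. Of 54 counts per gene under other promoter windows, 42 stayed and 12 moved, all at Setd2, Ash1l and Ssrp1: with 100 bp these held 2, 1 and 2 exonic and intronic clusters in each line, and with 1000 bp Ssrp1 held 0. The share of exonic clusters with GG before the TSS was 57.9% with a width of at least 3 bp, an alternative chosen after seeing the data. No paired analysis was possible because the replicates of each line were merged before clusters were called, and for the same reason no library could be left out. The table holds no reads per cluster, so a cluster missing from a line was not shown to be absent from its RNA.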
